A study of Rattus norvegicus with 5 samples.

Results

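Suprabasal keratinocytes are the cells of the spinous and granular layers of the epidermis, and they were followed here as the cells whose keratin message was led by Krt1 and Krt10. They were selected on their own counts. A barcode was kept with at least 500 UMIs (unique molecular identifiers, 1 per captured RNA molecule), at least 300 genes and at most 20% mitochondrial UMIs. Members then had at least 1% of their UMIs from Krt1, Krt5, Krt10, Krt14, Krt15 and Krt17, more of these than of Col1a1, Col3a1 and Dcn, no Ptprc, under 0.2% S100a8 and S100a9, under 2 UMIs of Mki67 and Top2a, under 0.1% Krt79, under 2 UMIs of Lhx2, and more Krt1 plus Krt10 than Krt5, Krt14 and Krt15 together. Of 43408 kept barcodes, 2627 were members, or 6.05%. They numbered 364 in control skin and 36, 102, 1225 and 900 at 7, 14, 28 and 60 d after irradiation. The values of these genes chose the members and are given only as a description.

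The 5 libraries came from the skin of SD rats, 1 library for each of control skin and skin taken 7, 14, 28 and 60 d after irradiation. By the study's methods the rats were young males, a shielded field on the buttock received a single electron beam dose, and a separate piece of skin that was not irradiated served as control. Whether a library held 1 animal or several is not given in the sources used here, and the 60 d library is described in the labels alone. The tissue was digested with enzymes and sorted to deplete debris and dead cells, so the shares below are shares of what survived digestion and sorting. The libraries held 70073362 to 139566348 UMIs over 6012 to 12239 barcodes, of which 4370 to 11304 were kept. Pairs of libraries shared 5 to 36 kept barcode sequences and no member's. With 1 library a group there was no replicate, no test between groups was possible, and every interval below covers counting error only.

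Epidermal keratinocytes divide in the basal layer on Krt5 and Krt14, detach from the basement membrane, and replace these keratins with Krt1 and Krt10 as they move upward. The suprabasal layers then build desmosomes, tight junctions, barrier lipids and the cornified envelope, a shell of crosslinked protein such as small proline-rich proteins and cornifelin. Krtdap, keratinocyte differentiation-associated protein, marks this change, and Krt16 and Krt17 are the keratins of activated and wounded epidermis.

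By Krtdap the label held in every library, with exceptions among other markers given below. Levels below are CPM, that is the UMIs of a gene over all cells of a class in a library, scaled to a total of 1000000. Krtdap, which the rule did not use, measured 2688 CPM in control and 3340.2, 5064, 3663 and 3328 CPM at 7, 14, 28 and 60 d in members. In basal-type cells, which passed every limit but the last and so kept more Krt5, Krt14 and Krt15, it measured 98.8 CPM in control and 153, 942, 242 and 147 CPM at 7, 14, 28 and 60 d. Each cell was thinned to 1000 UMIs, and those with fewer were left out, which were 6 of 364, 0 of 36, 9 of 102, 101 of 1225 and 6 of 900 members and 9 of 430, 19 of 661, 55 of 877, 135 of 1398 and 3 of 352 barcodes with Ptprc, the pan-leukocyte gene, in control and at 7, 14, 28 and 60 d. Of the cells that remained, 79.3% of control members and 75, 90.3, 87.9 and 86.9% at 7, 14, 28 and 60 d held a Krtdap UMI, against 4.75, 2.96, 13.3, 15.4 and 7.74% of Ptprc barcodes in the same libraries. Without thinning the member shares were 95.9% in control and 94.4, 92.2, 89.7 and 98.2% at 7, 14, 28 and 60 d, at median depths of 19699.5, 23266, 19164, 11803 and 24485 UMIs, and the Ptprc barcodes had median depths of 5469, 5630, 4370, 2626 and 4256. Most members held Krtdap at this depth in each library, and a smaller share of leukocyte barcodes did. The suprabasal markers Sbsn, Dsc1, Dsg1 and Dmkn were higher in members than in basal-type cells in all 5 libraries. Calml3 was lower in control members, at 34.4 against 98 CPM, about even at 7 d, at 281 and 286 CPM, and higher at 14, 28 and 60 d. Krt77 was scarce in members, at 14 CPM in control and 4.61, 0, 1.98 and 0.71 CPM at 7, 14, 28 and 60 d.

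Members were scarce at 7 d and numerous at 28 d. They made up 3.59% of kept barcodes in control skin, with a 95% Clopper-Pearson interval of 3.23 to 3.97. The share was 0.318% at 7 d, with an interval of 0.223 to 0.441, and 2.33% at 14 d, with 1.91 to 2.83. It was 13.6% at 28 d, between 12.9 and 14.3, and 10.5% at 60 d, between 9.89 and 11.2. Of members plus basal-type cells they were 14.5% in control and 3.7, 18.2, 40.6 and 19% at 7, 14, 28 and 60 d, so the 7 d and 28 d libraries stood at the low and high ends on either denominator. The intervals of neighbouring libraries in the share of kept barcodes did not overlap. Those of the other share overlapped between 14 d (15.1 to 21.7) and both control (13.2 to 16) and 60 d (17.9 to 20.1). The second share turned on the keratin limit. Members had a median keratin share of 5.13% in control and 3.2, 4.63, 7.75 and 6.74% at 7, 14, 28 and 60 d, and basal-type cells had 2.55% in control and 2.83, 3.49, 4.52 and 3.92% at 7, 14, 28 and 60 d. With at least 5% keratin UMIs in both classes, members were 67.8% of the sum in control and 13.6, 27.5, 55.3 and 41.4% at 7, 14, 28 and 60 d, so that control, not 28 d, was highest. Fewer suprabasal cells in the skin and fewer that survived digestion and sorting cannot be told apart.

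The calprotectin limit of the rule, that is S100a8 plus S100a9, took most suprabasal cells of the 14 d library out of the members. Among keratin-positive cells with Krt1 and Krt10 ahead, 84.5% were over the limit at 14 d (603 of 714), against 5.56% at 7 d, 28.6% at 28 d, 7.52% at 60 d and 0 of 659 in control, which allows a share of up to 0.558%. With no calprotectin limit the 14 d library held 622 such cells, or 14.2% of kept barcodes, which is above the control share. The 102 members at 14 d are the calprotectin-poor remainder of these cells, and 520 more passed each other limit of the rule. Just inside the limit, at 0.1 to 0.2%, lay 46 cells at 14 d, and just outside it, at 0.2 to 0.3%, lay 45. At the keratin limit, 140 members at 28 d had Krt1 and Krt10 at over 50 to 60% of the 5 keratins and 1299 CPM of Krtdap, and 138 basal-type cells just under it, at over 40 to 50%, had 1075 CPM. In control the cells at over 50 to 60% and over 40 to 50% held 1308 and 484 CPM. The Krt79 limit took its largest part from control. Of keratin-positive cells with Krt1 and Krt10 ahead, 266 of 659 in control were over it. At 7, 14, 28 and 60 d these were 13 of 54, 9 of 714, 22 of 1866 and 41 of 1064. After all limits 55.2% of such cells were members in control and 66.7, 14.3, 65.6 and 84.6% at 7, 14, 28 and 60 d. Shares without the Krt79 limit were not counted.

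**Figure D1:**
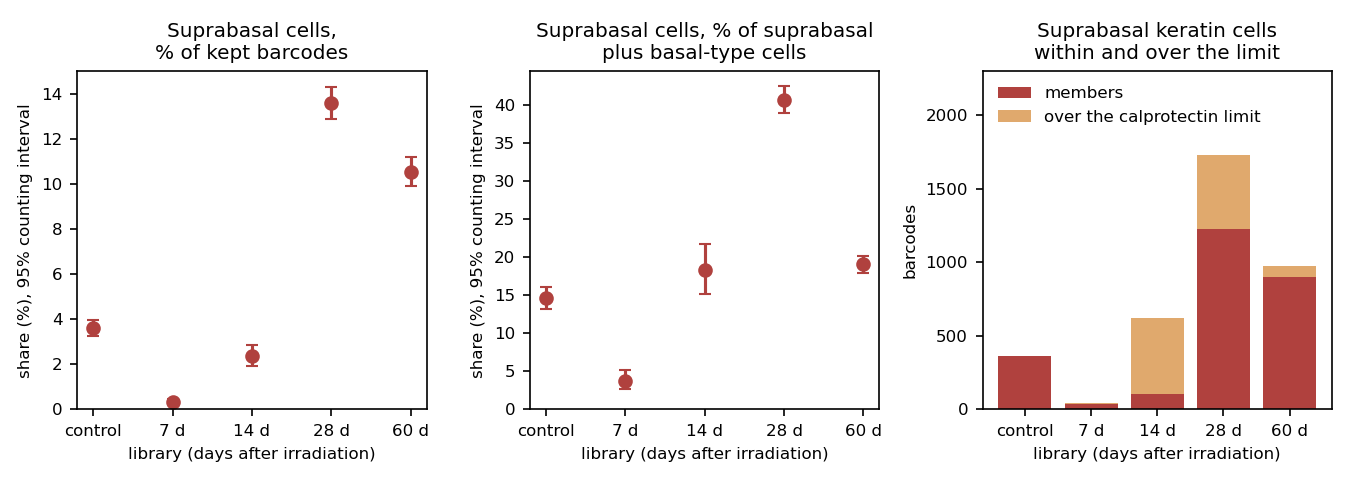
Suprabasal members by library, from control on the left to 60 d on the right. Points give the share of kept barcodes (left) and of members plus basal-type cells (middle) in percent with 95% counting intervals, and bars (right) give barcodes within the calprotectin limit, the members, and suprabasal cells over it. The share of kept barcodes runs between 0.318% at 7 d and 13.6% at 28 d, and 520 cells over the limit stand above 102 members at 14 d.

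Members carried some message of other cell types, and its part in the results below was not tested. Keratin message was also present in leukocyte barcodes, where Krt10 stood at 1466 CPM in control and 103, 1421, 6321 and 3089 CPM at 7, 14, 28 and 60 d. The 5 fibroblast markers found summed to 1738 CPM in control members and 2421, 155, 381 and 332 CPM at 7, 14, 28 and 60 d, with a range of 89396 to 100253 CPM in fibroblast barcodes, those with at least 1% Col1a1, Col3a1 and Dcn, more of these than keratin and no Ptprc. The 6 immune markers, Ptprc among them at 0 by the rule, summed to 16.7 CPM in control members and 22.1, 50.9, 116 and 6.31 CPM at 7, 14, 28 and 60 d. The 28 d value was the highest of the 5, and 156 of its 1225 members held at least 2 immune marker UMIs. Cd74, whose levels are given below with the class II genes, is one of these markers and made up most of the 28 d sum. Endothelial, melanocyte and Merkel cell markers each stayed under 10 CPM in every library's members. The 6 hair follicle markers summed to 58.3 CPM in control and 185, 233, 136 and 107 CPM at 7, 14, 28 and 60 d in members, all 4 irradiated values above control, and basal-type cells held 387 CPM in control and 329, 306, 353 and 239 CPM at 7, 14, 28 and 60 d. The 3 mural markers summed to 23 CPM in control and 31.3, 145, 56 and 41.9 CPM at 7, 14, 28 and 60 d, and at 14 d 4 of 102 members held at least 2 of these UMIs. The 3 upper hair follicle markers summed to 7878 CPM in control and 14484, 18512, 18028 and 16829.8 CPM at 7, 14, 28 and 60 d. Krt17 and Krt79 among them are genes of the rule. Krt17 made up nearly all of each sum, so the sum follows Krt17 and not the other markers of this set. The 4 sebaceous markers found summed to 248 CPM in control and 147, 295, 209.6 and 239 CPM at 7, 14, 28 and 60 d. A stricter set, chosen after seeing the data, kept members with at least 3% keratin and under 0.1% of UMIs from fibroblast, immune, endothelial, melanocyte and mural markers. It held 297 control members and 19, 79, 997 and 815 at 7, 14, 28 and 60 d, and the values with it are called marker-clean below.

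Within each library the members stood apart from the basal-type cells by a broad suprabasal program. Of 1452 genes at 50 CPM or more in either class in each library, 30 (2.07%) were at least 2-fold higher in members in all 5 libraries and 45 (3.1%) at least 2-fold lower. The rule split these cells by keratin UMIs of the same cells, so the contrast is a description. Elovl4, which elongates the very long fatty acids of barrier ceramides, led the higher genes. It measured 180.4 CPM in control and 317, 67.5, 133 and 122 CPM at 7, 14, 28 and 60 d in members, and basal-type cells held 4.71 CPM in control and 14.5, 2.57, 3.89 and 3.55 CPM at 7, 14, 28 and 60 d. Its log2 ratios of members over basal-type cells were 5.26 in control and 4.45, 4.72, 5.09 and 5.10 at 7, 14, 28 and 60 d. Endou, a secreted endoribonuclease, measured 260.2 CPM in control and 294, 149, 245 and 208 CPM at 7, 14, 28 and 60 d in members, and basal-type cells held 10.8 CPM in control and 29.6, 14.7, 13.1 and 6.33 CPM at 7, 14, 28 and 60 d. Cnfn, the envelope protein cornifelin, had log2 ratios of 3.11 in control and 6.13, 4.51, 3.42 and 4.01 at 7, 14, 28 and 60 d. Its member level was 237 CPM in control and 889, 299, 57.8 and 64.4 CPM at 7, 14, 28 and 60 d, so it separated the layers in each library while it varied widely between libraries.

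Desmosomal and secreted genes of the spinous layer followed. Dsg1, the desmoglein of the upper epidermis, measured 264 CPM in control and 174, 199, 317 and 263 CPM at 7, 14, 28 and 60 d in members, and basal-type cells held 45.7 CPM in control and 24, 39.9, 48.7 and 46.9 CPM at 7, 14, 28 and 60 d. Its log2 ratios spanned 2.32 to 2.86. Dsc1, the desmocollin paired with it, was scarcer at 72.5 CPM in control and 71, 46.5, 95.4 and 52.8 CPM at 7, 14, 28 and 60 d in members, and basal-type cells held 2.35 CPM in control and 1.12, 2.16, 2.86 and 1.75 CPM at 7, 14, 28 and 60 d. Sbsn (suprabasin), a secreted protein of suprabasal cells, measured 1699 CPM in control and 5913, 2135, 1946 and 1837 CPM at 7, 14, 28 and 60 d in members, and basal-type cells held 347 CPM in control and 1401, 569, 261 and 173 CPM at 7, 14, 28 and 60 d. Sprr1a, a precursor of the cornified envelope, had a smallest log2 ratio of 1.81 and Fabp5, the epidermal fatty acid-binding protein, of 1.51, both at 14 d. The other genes of this group were Npl, a sialic acid lyase, Ggct, Cwh43 and the serpin Serpinb3a, with smallest log2 ratios of 2.38, 1.66, 1.62 and 1.60. The separation from basal-type cells was narrowest at 14 d for 8 of these 12 genes.

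Genes of basal attachment stood on the other side. Itgb4, the integrin chain of hemidesmosomes, measured 37.3 CPM in control and 122, 47, 45.1 and 43.9 CPM at 7, 14, 28 and 60 d in members, and basal-type cells held 228 CPM in control and 654, 260.4, 324 and 262 CPM at 7, 14, 28 and 60 d. Col17a1, the hemidesmosomal collagen, measured 178 CPM in control and 100.5, 30.3, 136 and 197 CPM at 7, 14, 28 and 60 d in members, and basal-type cells held 719 CPM in control and 581, 434, 945 and 953 CPM at 7, 14, 28 and 60 d. Cav1 and Cavin3, which build caveolae, had largest log2 ratios of -2.48 and -2.96, the growth factor Ptn -3.04, the transcription cofactor Lmo1 -2.60 and the activin antagonist Fst -2.34. With each cell weighted alike, the log2 ratio of Cav1 reached 0.01 in the library where it was highest, so its call did not hold there. Over the 12 genes of the basal and hemidesmosome list, 8 to 10 were at least 2-fold lower in members in each library. Of all genes of at least 20 UMIs, 20.6% in control and 20.1, 11.1, 17.2 and 20% at 7, 14, 28 and 60 d were that much lower, and since membership was set by this contrast nothing is read from the shares together. The median log2 ratio was -1.89 in control and -1.77, -2.34, -2.37 and -2.11 at 7, 14, 28 and 60 d, against -0.31 in control and -0.25, -0.16, -0.29 and -0.35 at these times over all genes.

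Other lists showed which programs the layer carried. Of the barrier lipid genes, 11 to 20 of 21 to 26 measured were at least 2-fold higher in members in each library. Of all genes of at least 20 UMIs, 4.61% in control and 6.39, 3.66, 3.94 and 3.78% at 7, 14, 28 and 60 d were that much higher. The barrier lipid genes had median log2 ratios of 1.26 in control and 2.27, 1.01, 1.31 and 1.07 at 7, 14, 28 and 60 d. Cholesterol synthesis genes had a median of 0.97 in control and 0.58, 0.50, 0.58 and 0.79 at the 4 times. Tight junction genes had medians near 0, at -0.11 in control and 0.00, 0.13, 0.00 and 0.09. The transcription factors of differentiation had medians of 0.10 in control and 0.17, 0.05, 0.12 and 0.15. Klf4, a factor of barrier formation, measured 1209.9 CPM in control and 2078, 661, 1309 and 1108 CPM at 7, 14, 28 and 60 d in members, and basal-type cells held 1389 CPM in control and 2205, 636, 1097 and 967 CPM at 7, 14, 28 and 60 d. Its log2 ratios spanned -0.20 to 0.26. Grhl3, which drives barrier genes and envelope crosslinking, was higher in members in all 5 libraries, with log2 ratios of 1.02 in control and 1.84, 0.47, 1.18 and 2.45 at 7, 14, 28 and 60 d.

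**Figure D2:**
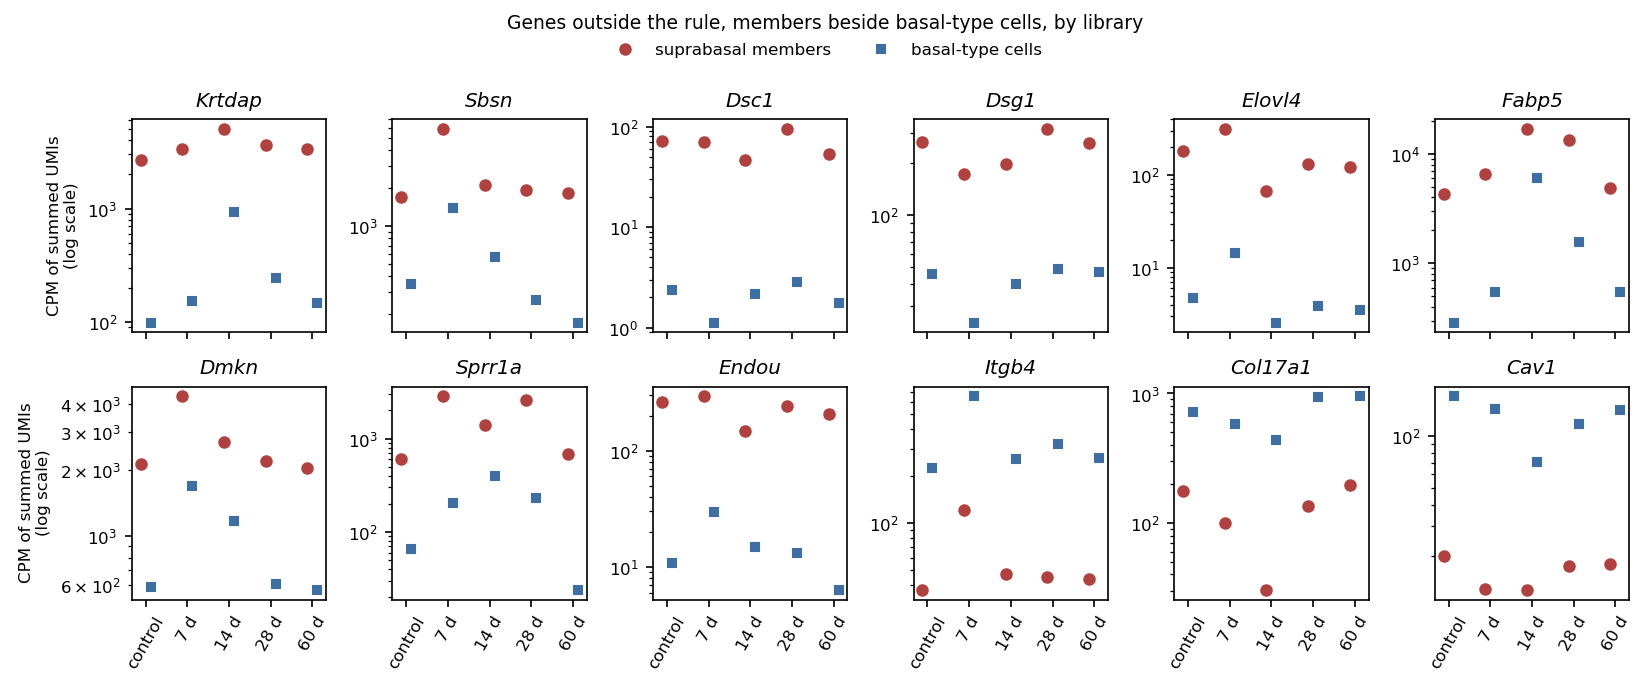
Level of 12 genes that the rule did not use, in CPM on a log scale, in members (circles) and basal-type cells (squares) of each library. Suprabasal genes such as Krtdap, Dsc1 and Elovl4 stand higher in members in all 5 libraries, and Itgb4, Col17a1 and Cav1 stand lower.

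Members were not uniform. They were grouped by Krt1 plus Krt10 as a share of the 5 keratins of the last limit, over 50 to 75%, over 75 to 90% and over 90%, which are ranges of a score and not types. The last range held 57.1% of control members and 47.2, 19.6, 50.4 and 49.2% at 7, 14, 28 and 60 d, so the 14 d members leaned to the basal end. At 7 d the ranges held 9, 10 and 17 cells and are not described.

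Across the 3 ranges Krtdap measured 983, 1756 and 3456 CPM in control, 1718, 3072 and 4689 CPM at 28 d and 2005, 2811 and 4177 CPM at 60 d. Dsc1 had a steeper course, with 11.1, 13 and 105 CPM in control, 14.8, 46 and 145 CPM at 14 d, 20.9, 60.8 and 139.9 CPM at 28 d and 9.17, 31.8 and 82.7 CPM at 60 d. Elovl4 measured 33.9, 63.8 and 253 CPM in control and 21.5, 57.2 and 198 CPM at 60 d. In these libraries the range of most Krt1 and Krt10 was also the range of most Krtdap, Dsc1 and Elovl4. Casp14, the caspase of cornification, measured 41.5, 13 and 127 CPM in control and 11, 17 and 54.7 CPM at 28 d. Krt17 ran the other way, with 17056, 11781 and 3757 CPM in control, 23452, 13423 and 7204 CPM at 14 d, 28072, 22353 and 12027 CPM at 28 d and 28900, 21508 and 8989.5 CPM at 60 d. Ly6d was flat in control, at 14782, 14066 and 14945 CPM, and so was Klf4, at 1252, 1270.2 and 1184 CPM. The chemokine Ccl27 belonged to the basal end, with 966, 445 and 111 CPM in control.

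**Figure D3:**
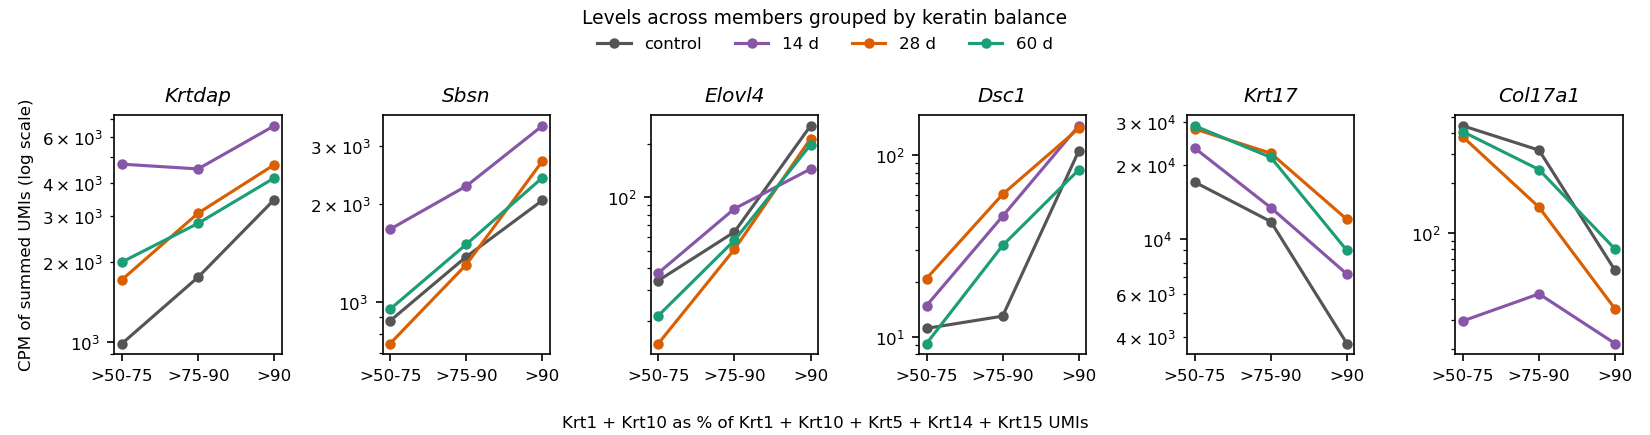
Level of 6 genes in CPM on a log scale across members grouped by Krt1 plus Krt10 as a share of the 5 keratins, 1 line per library with at least 20 cells in each range (control, 14, 28 and 60 d). Krtdap, Sbsn, Elovl4 and Dsc1 are highest in the range over 90% in each library shown, and Krt17 is lowest there.

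The genes that varied most like Krtdap from member to member were found by Spearman's rho within each library among 3201 genes seen in at least 20% of members of each library. The cells of a library share its depth and free RNA, so rho is a description. The 5 with the highest median rho were Dmkn at 0.63, Sbsn at 0.60, Perp at 0.59, Gltp at 0.59 and Fabp5 at 0.58. Dmkn (dermokine) is a secreted protein of suprabasal cells, Perp is a desmosomal p53 target and Gltp a glycolipid transfer protein. The lowest values of Perp and Fabp5, 0.27 and 0.21, were those of the 36 members at 7 d.

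Sbsn, Dmkn and Krtdap are the 3 secreted genes of this group. In the RefSeq annotation of GRCr8, 36881 bases separate the Sbsn start used below from the Krtdap start. The 3 genes lie close together in this order on rat chromosome 1, on the same strand. Their promoters, the 250 bases before the start site, are printed with that of Krt10 because the 3 are secreted markers that the rule did not use and Krt10 is the keratin that it did. Capitals mark TGANTCA, the AP-1 motif, and TATAAA, each searched on both strands with no overlap between them. The windows are chr1:95128731-95128980 for Sbsn, chr1:95141370-95141619 for Dmkn and chr1:95165612-95165861 for Krtdap, all on the plus strand, and chr10:84839161-84839410 on the minus strand for Krt10. RefSeq lists 2 starts for Sbsn, and the one nearer Dmkn is shown.
Sbsn: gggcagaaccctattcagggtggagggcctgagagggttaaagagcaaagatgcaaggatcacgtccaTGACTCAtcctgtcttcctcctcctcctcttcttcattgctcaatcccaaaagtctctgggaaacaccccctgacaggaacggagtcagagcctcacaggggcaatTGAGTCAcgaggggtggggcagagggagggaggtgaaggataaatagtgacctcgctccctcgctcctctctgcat
Dmkn: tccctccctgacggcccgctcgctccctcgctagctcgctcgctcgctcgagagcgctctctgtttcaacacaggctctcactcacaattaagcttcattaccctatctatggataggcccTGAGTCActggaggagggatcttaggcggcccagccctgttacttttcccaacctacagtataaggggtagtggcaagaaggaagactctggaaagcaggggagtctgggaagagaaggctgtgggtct
Krtdap: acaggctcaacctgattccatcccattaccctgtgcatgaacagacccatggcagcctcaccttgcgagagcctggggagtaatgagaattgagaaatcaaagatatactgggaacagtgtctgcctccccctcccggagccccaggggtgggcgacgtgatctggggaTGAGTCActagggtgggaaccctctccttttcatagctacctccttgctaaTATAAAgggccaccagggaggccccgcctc
Krt10: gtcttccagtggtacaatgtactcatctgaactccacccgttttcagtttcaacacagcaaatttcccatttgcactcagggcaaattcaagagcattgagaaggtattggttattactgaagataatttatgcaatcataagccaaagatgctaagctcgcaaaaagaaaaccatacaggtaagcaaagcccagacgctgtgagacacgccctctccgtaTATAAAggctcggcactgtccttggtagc
TGANTCA stood 2 times in the Sbsn window, 1 time in each of the Dmkn and Krtdap windows and not in that of Krt10. TATAAA began 30 bases before the start of Krtdap and 29 before that of Krt10. Of 33469 windows of this length, 6.34% held TGANTCA and 12.9% held TATAAA. Counted by gene over all its starts, 4 of 26 of the genes higher in members in all 5 libraries with a window held TGANTCA, 3 of 35 of the lower ones did, and 6.99% of all genes did. A match is a stretch of letters and was not tested as a binding site.

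Members of each irradiated library were then set against control members, to see how the layer differed after irradiation. The 4 comparisons share the control library. Among genes of at least 50 CPM in either library with a UMI in at least 10% of its members, 258 of 2317 (11.1%) were at least 2-fold higher at 7 d and 67 (2.89%) at least 2-fold lower. By the same limits 132 of 2133 (6.19%) were at least 2-fold higher at 14 d and 249 (11.7%) at least 2-fold lower. At 28 d, 95 of 2061 (4.61%) were at least 2-fold higher and 158 (7.67%) at least 2-fold lower, and at 60 d, 39 of 2012 (1.94%) were at least 2-fold higher and 212 (10.5%) at least 2-fold lower. The 7 d comparison leaned to higher and the 60 d comparison to lower values. Scaled by the median ratio of well-counted genes, which shifted the 7 d log2 ratios by -0.26, the 7 d counts were 182 higher and 123 lower, or 59.7% of calls higher in place of 79.4%. With totals that left out the keratins of the rule, calprotectin, mitochondrial and ribosomal protein genes they were 198 higher and 100 lower. With each cell weighted alike the 14 d counts were 305 higher and 229 lower, or 57.1% of calls higher in place of 34.6%. With marker-clean members the counts were 239 and 72 at 7 d, 131 and 250 at 14 d, 95 and 156 at 28 d and 41 and 187 at 60 d.

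Some of these genes were past 2-fold the same way in basal-type cells, and those were not particular to members. Of the higher genes these were 114 of 258 at 7 d, 89 of 132 at 14 d, 64 of 95 at 28 d and 25 of 39 at 60 d. Of the lower genes they were 41 of 67, 193 of 249, 101 of 158 and 164 of 212. Past 2-fold in fibroblasts as well were 29, 29, 39 and 15 higher and 13, 53, 62 and 78 lower genes. The share of all tested genes past 2-fold in basal-type cells or fibroblasts is not given here. Nothing is read from the size of the overlap. Some of these genes are given here. Tomm6, a subunit of the mitochondrial import pore, measured 87.4 CPM in control and 103, 35.2, 5.31 and 19.6 CPM at 7, 14, 28 and 60 d in members. It had a log2 ratio at 28 d of -4.04 in members, -4.28 in basal-type cells and -4.82 in fibroblasts. Smdt1, a part of the mitochondrial calcium uniporter, had -3.68, -3.64 and -4.41 in members, basal-type cells and fibroblasts, and Btf3, a nascent chain factor, -2.97, -3.08 and -3.20. The 5S ribosomal RNA gene, at 70.1 CPM at 28 d against 5.69 CPM in control in members, had 3.62, 3.81 and 2.79. The 28 d values of these 4 genes lay on the same side of control in all 3 classes.

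Gene lists were read by counting genes past 2-fold among those with at least 20 UMIs over both libraries. Of 445 listed genes 418 were found, and loricrin, filaggrin and involucrin were not analysed here. Over all such genes, 12.2% were higher and 7.22% lower at 7 d, 7.52% and 16% at 14 d, 8.14% and 11.2% at 28 d and 5.29% and 13.3% at 60 d, with median log2 ratios of 0.17, -0.11, -0.09 and -0.13. The granular and cornified envelope list had 11 higher and 0 lower of 16 at 7 d, 3 higher and 4 lower of 13 at 14 d, 5 higher and 4 lower of 15 at 28 d and 0 higher and 4 lower of 14 at 60 d. Its medians were 2.11, -0.22, 0.17 and -0.25 at 7, 14, 28 and 60 d, and in basal-type cells 0.36, -0.63, -0.46 and -0.90. With no calprotectin limit the 14 d list had 6 higher and 3 lower and a median of 0.04. Sprr1a measured 610.2 CPM in control and 2841, 1381, 2582 and 683 CPM at 7, 14, 28 and 60 d in members. Cnfn was at 237 CPM in control and 889, 299, 57.8 and 64.4 CPM at 7, 14, 28 and 60 d, high at 7 d and low at 28 and 60 d. After thinning, it was found in 3.91% of control members and 22.2, 7.53, 4.54 and 2.35% at 7, 14, 28 and 60 d. That share was not below control at 28 d, unlike the level. Without thinning the shares were 17.6% in control and 55.6, 12.7, 11.3 and 10.3%. Klk8, a protease of the granular layer, measured 77 CPM in control and 383, 234, 249 and 126 CPM at 7, 14, 28 and 60 d, and Tgm3, an envelope transglutaminase, 390.2 CPM in control and 439, 228, 1259 and 424 CPM at 7, 14, 28 and 60 d, with its high value at 28 d.

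The 7 d values rest on 36 members, and for some genes on 1 of them. A single member held 72.3% of the Klk6 UMIs, and the richest member for each held 56.3% of those of Cyb5r2, 59.5% of those of Degs2 and 50.6% of those of Il1f10. Without the member of most Cnfn in each library the granular list's median at 7 d was 1.86, with 10 of 16 genes higher, and over the 19 marker-clean members it was 0.77, with 7 of 15 higher. Klk6, a skin kallikrein, measured 213 CPM at 7 d against 0.661 CPM in control, 322-fold (95% interval 136 to 1001) higher, in 8 of 36 members. Il1f10, an interleukin 1 family cytokine, measured 147 CPM at 7 d against 1.06 CPM in control, and Degs2, a hydroxylase of barrier ceramides, 136 CPM at 7 d against 2.65 CPM in control. These levels describe a few cells of 1 library.

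The barrier lipid list also had more higher than lower genes at 7 d. It had 13 higher and 2 lower of 25 at 7 d, 6 higher and 9 lower of 25 at 14 d, 3 higher and 2 lower of 26 at 28 d and 1 higher and 6 lower of 26 at 60 d, with medians of 1.05, -0.66, -0.23 and -0.57 at 7, 14, 28 and 60 d. The 7 d median was 0.52 over marker-clean members and 0.64 without the member of most Cnfn, with 8 and 9 genes higher. With each cell weighted alike 9 were higher, and with scaling by the median of ratios 8. Elovl4 measured 180.4 CPM in control and 317, 67.5, 133 and 122 CPM at 7, 14, 28 and 60 d, Sult2b1, the cholesterol sulfotransferase, 152 CPM in control and 313, 138, 127 and 110.2 CPM at 7, 14, 28 and 60 d, and Degs1, a ceramide desaturase, 194 CPM in control and 194, 123, 165 and 152 CPM at 7, 14, 28 and 60 d. Fabp5 differed from the list, with 4279 CPM in control and 6584, 16995, 13523 and 4933 CPM at 7, 14, 28 and 60 d in members, and basal-type cells held 288 CPM in control and 548, 5967, 1563 and 549 CPM at 7, 14, 28 and 60 d. Its high values were those of 14 and 28 d in both classes. Cholesterol synthesis genes showed little of this, with medians of -0.43, -0.62, 0.12 and -0.35 at 7, 14, 28 and 60 d and at most 5 of 16 genes past 2-fold at any time. The 5 were lower genes at 14 d, where 1 was lower with no calprotectin limit.

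**Figure D4:**
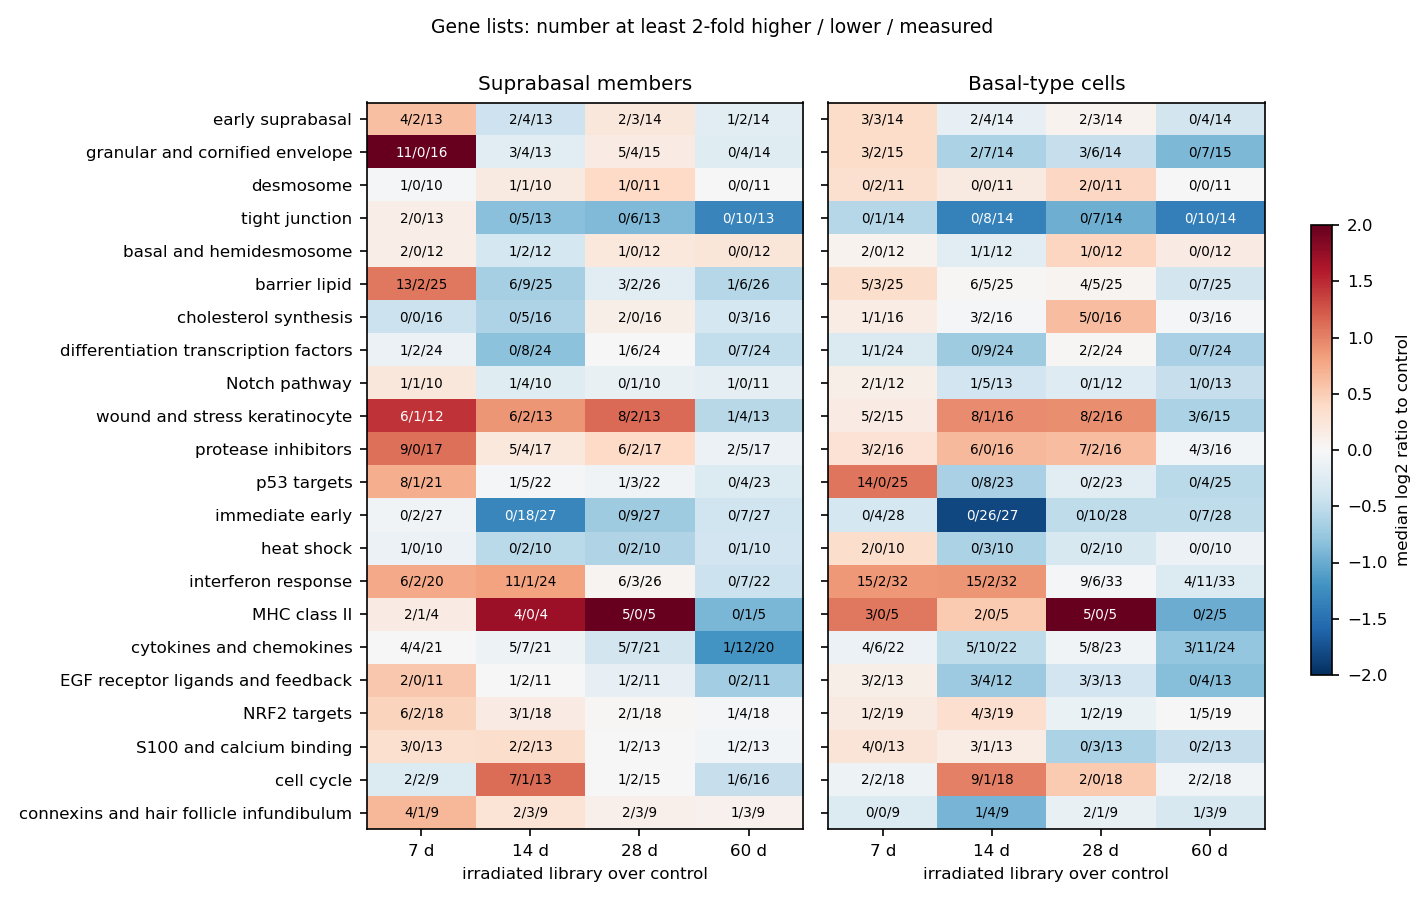
Median log2 ratio to control of 22 gene lists (color), in members (left) and basal-type cells (right), for 7, 14, 28 and 60 d. Numbers in each cell give genes at least 2-fold higher, at least 2-fold lower and measured. The granular list at 7 d (11 of 16 higher) and the tight junction list at 60 d (10 of 13 lower) have members' medians of 2.11 and -1.32.

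Among genes of wounded and stressed keratinocytes, more were higher than lower at 7, 14 and 28 d, and more were lower at 60 d. The list, without the rule's Krt17, S100a8 and S100a9, had 6 higher and 1 lower of 12 at 7 d, 6 higher and 2 lower of 13 at 14 d, 8 higher and 2 lower of 13 at 28 d and 1 higher and 4 lower of 13 at 60 d, with medians of 1.44, 0.88, 1.13 and -0.56 at 7, 14, 28 and 60 d and in basal-type cells of 0.17, 0.94, 0.92 and -0.64. Krt16 measured 44.1 CPM in control and 593, 741, 222 and 105 CPM at 7, 14, 28 and 60 d in members, and basal-type cells held 8.91 CPM in control and 36.7, 479.5, 64.5 and 18.5 CPM at 7, 14, 28 and 60 d. It was above control at each time and highest at 14 d. Gjb2, the connexin 26 gene, measured 111 CPM in control and 175, 538, 559 and 125 CPM at 7, 14, 28 and 60 d in members, and basal-type cells held 23.2 CPM in control and 25.7, 261, 225 and 46.8 CPM at 7, 14, 28 and 60 d. Serpinb2, a plasminogen activator inhibitor, ran lower, at 1525 CPM in control and 885, 566, 1257 and 430.2 CPM at 7, 14, 28 and 60 d. Krt17, which the rule used in its keratin sum, measured 7747 CPM in control and 14207, 18447, 17940 and 16769 CPM at 7, 14, 28 and 60 d in members. After thinning, Krt16 was found in 1.96% of control members and 30.6, 24.7, 14.1 and 5.37% at 7, 14, 28 and 60 d. Without thinning the shares were 16.5% in control and 55.6, 56.9, 38.6 and 29.3%. After thinning it was found in 0, 0.312, 3.65, 2.77 and 0.573% of Ptprc barcodes of the 5 libraries. The value of 0 for Ptprc barcodes in control, 0 of 421, allows a share of up to 0.872%.

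The gene with the largest ratio at 14, 28 and 60 d was a protease inhibitor. Wfdc18, a secreted whey acidic protein domain inhibitor, had 0 UMIs among the 7559322 UMIs of control members and measured 23, 3175, 1755 and 560.1 CPM at 7, 14, 28 and 60 d. Set against a floor of 3 UMIs over the control members, the ratio was 8000.1-fold (95% interval 2736 to 38803) at 14 d. It was 4421-fold (1513 to 21439) at 28 d and 1411-fold (483 to 6844) at 60 d. These intervals are those of the floor count and not of the observed 0. Basal-type cells held 0.415 CPM in control and 95, 1551, 755 and 567 CPM at 7, 14, 28 and 60 d, and Ptprc barcodes 0.311 CPM in control and 1.93, 558, 492 and 253 CPM at 7, 14, 28 and 60 d. The gene was thus under 1 CPM in control in members, basal-type cells and Ptprc barcodes. Fibroblasts held 4.27 CPM in control and 29.1, 80.9 and 22.4 CPM at 14, 28 and 60 d. UMIs of it were found in 76.5% of members at 14 d, 64.9% at 28 d and 39.4% at 60 d. Stfa3, a stefin A that inhibits cathepsins, measured 7284 CPM in control and 17348, 15589, 18236 and 9955 CPM at 7, 14, 28 and 60 d in members, and basal-type cells held 1529.5 CPM in control and 740.3, 5692, 4689 and 3659 CPM at 7, 14, 28 and 60 d. Reads of the stefin A genes can fall between near-identical copies, so Stfa3 and Stfa2 levels are uncertain. Over the list, 9, 5, 6 and 2 of 17 genes were higher and 0, 4, 2 and 5 lower at 7, 14, 28 and 60 d.

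Desmosome and tight junction genes differed from each other. Desmosome genes lay near their control level, with medians of -0.05, 0.19, 0.40 and -0.01 at 7, 14, 28 and 60 d and at most 1 gene at least 2-fold higher and 1 lower at any time. Dsp (desmoplakin), which ties desmosomes to keratin, measured 1982 CPM in control and 1682, 1793, 3109.5 and 2483 CPM at 7, 14, 28 and 60 d, and Perp 2907 CPM in control and 4825, 3328, 4086 and 3873 CPM at 7, 14, 28 and 60 d. Tight junction genes had medians below 0 at 14, 28 and 60 d, with 0, 5, 6 and 10 of 13 genes at least 2-fold lower at the 4 times. The medians were 0.13, -0.83, -0.89 and -1.32 at 7, 14, 28 and 60 d. Over marker-clean members they were -0.33, -0.96, -0.93 and -1.30, and the 7 d value was -0.31 without the member of most Cnfn and -0.13 with scaling by the median of ratios, so its sign changed with the setting. Cldn4 measured 1072 CPM in control and 1429.6, 578, 613 and 430.5 CPM at 7, 14, 28 and 60 d and Cldn1, the claudin of the epidermal water barrier, 361 CPM in control and 436, 148, 195 and 121 CPM at 7, 14, 28 and 60 d. Ocln (occludin) measured 53.6 CPM in control and 31.3, 8.32, 11.2 and 7.52 CPM at 7, 14, 28 and 60 d in members, and basal-type cells held 54.5 CPM in control and 38.9, 11.5, 14.9 and 7.31 CPM at 7, 14, 28 and 60 d. In members it had a ratio of 0.14 (95% interval 0.117 to 0.168) at 60 d over control. The list's medians in basal-type cells, -0.57, -1.36, -0.97 and -1.37, were below 0 at each time as well.

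Transcription factors of differentiation had few higher genes, with 1, 0, 1 and 0 of 24 higher at 7, 14, 28 and 60 d and 2, 8, 6 and 7 lower. With no calprotectin limit 13 were lower at 14 d. Grhl3 measured 278 CPM in control and 248, 113, 306 and 50.2 CPM at 7, 14, 28 and 60 d in members, and basal-type cells held 137 CPM in control and 69.5, 82, 135 and 9.18 CPM at 7, 14, 28 and 60 d. It was near its control level at 7 and 28 d and below it at 60 d, with a ratio of 0.18 (95% interval 0.168 to 0.194). Immediate early genes, which answer stress and tissue dissociation, were lower at 14 d in 18 of 27 genes, with medians of -0.07, -1.31, -0.71 and -0.40 at 7, 14, 28 and 60 d and -0.35, -1.83, -0.51 and -0.51 in basal-type cells. The 14 d count was 11 with each cell weighted alike, at a median of -0.87, and 24 with no calprotectin limit, at a median of -1.83. Jun measured 2681 CPM in control and 2629.6, 1335, 1640.3 and 2037 CPM at 7, 14, 28 and 60 d in members and Fos 2331 CPM in control and 1801, 1067, 1265 and 1972 CPM at 7, 14, 28 and 60 d. Nr4a1, the Nur77 gene that the study follows, measured 101 CPM in control and 125, 39.1, 73.9 and 76.1 CPM at 7, 14, 28 and 60 d in members, and basal-type cells held 143 CPM in control and 153, 48.9, 147 and 103 CPM at 7, 14, 28 and 60 d.

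Targets of p53, the DNA damage factor, had more higher than lower genes at 7 d, with 8 higher and 1 lower of 21, a median of 0.73, and a median of 1.06 in basal-type cells. At 14, 28 and 60 d at most 1 gene was higher and the medians were -0.04, -0.07 and -0.28. Cdkn1a, the p21 inhibitor of cell division, measured 468 CPM in control and 680.2, 192, 362 and 245 CPM at 7, 14, 28 and 60 d in members, and basal-type cells held 439.6 CPM in control and 918, 191, 334 and 165 CPM at 7, 14, 28 and 60 d. Phlda3, a p53 target that restrains Akt, and the cyclin G gene Ccng1 were named after their values were seen. Phlda3 measured 89.3 CPM in control and 312, 110.1, 106 and 88.4 CPM at 7, 14, 28 and 60 d. Ccng1 measured 88.2 CPM in control and 255, 78.3, 90 and 95.2 CPM at 7, 14, 28 and 60 d. Both stood above the other libraries at 7 d. The 7 d median was 0.79 over marker-clean members and 0.72 without the member of most Cnfn.

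Genes that signal to immune cells differed widely between libraries. Ccl27, the skin chemokine that attracts T cells, measured 345 CPM in control and 1.84, 12.2, 47.4 and 87.3 CPM at 7, 14, 28 and 60 d in members, and basal-type cells held 1683 CPM in control and 109, 93, 628 and 789 CPM at 7, 14, 28 and 60 d. It was lower than control at each time, and in members had a ratio of 0.00534 (95% interval 0.000646 to 0.0193) at 7 d and a ratio of 0.0354 (95% interval 0.0229 to 0.0524) at 14 d. Ccl20, which attracts cells with Ccr6, measured 3060.2 CPM in control and 2759.6, 355, 689.9 and 964 CPM at 7, 14, 28 and 60 d in members. Its 14 and 28 d values were the lowest. Cxcl14 had its high value at 7 d, with 276 CPM in control and 1230.5, 123, 296 and 380.2 CPM at 7, 14, 28 and 60 d. The list of cytokines and chemokines had 4 higher and 4 lower of 21 at 7 d, 5 higher and 7 lower of 21 at 14 d, 5 higher and 7 lower of 21 at 28 d and 1 higher and 12 lower of 20 at 60 d, with medians of -0.01, -0.10, -0.37 and -1.20 at 7, 14, 28 and 60 d. Its 60 d median was the lowest, and was -0.87 over marker-clean members.

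The interferon response list had 6 higher and 2 lower of 20 at 7 d, 11 higher and 1 lower of 24 at 14 d, 6 higher and 3 lower of 26 at 28 d and 0 higher and 7 lower of 22 at 60 d, medians of 0.75, 0.81, 0.05 and -0.43 at 7, 14, 28 and 60 d, and medians in basal-type cells of 0.87, 0.88, -0.04 and -0.27. At 14 d, 15 were higher over marker-clean members and 16 with each cell weighted alike, at medians of 1.62 and 1.76. Isg15, a ubiquitin-like interferon product, measured 1.19 CPM in control and 265, 57.2, 4.08 and 1.96 CPM at 7, 14, 28 and 60 d in members, and 1 of 36 members held 43.8% of its 7 d UMIs. B2m, the light chain of class I molecules, measured 1366 CPM in control and 2205, 1019.5, 1247 and 1389.9 CPM at 7, 14, 28 and 60 d. The 5 class II genes with enough UMIs were all higher at 28 d, with a median of 3.08 in members and 3.18 in basal-type cells. Cd74, their invariant chain, measured 7.67 CPM in control and 16.6, 21.5, 93.4 and 4.05 CPM at 7, 14, 28 and 60 d in members. Class II genes are chiefly those of antigen-presenting leukocytes. The Ptprc barcodes held 7385 CPM in control and 6688, 2379.9, 6314 and 3329 CPM at 7, 14, 28 and 60 d of Cd74. Cd74 is also one of the immune markers summed above. In members it made up 93.4 of their 116 CPM at 28 d and 21.5 of their 50.9 CPM at 14 d. The high immune marker sum at 28 d is thus not separate from Cd74. Over marker-clean members the median at 28 d was 1.19 and that at 14 d was -0.05, against 1.72 in all members at 14 d. That set limits the immune markers, Cd74 among them, so lower class II values there follow in part from the choice of cells. Where the class II message came from was not tested.

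Of the remaining lists, cell cycle genes without the rule's Mki67 and Top2a had 7 higher and 1 lower of 13 at 14 d and a median of 1.12, and 2 higher and 2 lower of 9 at 7 d, 1 higher and 2 lower of 15 at 28 d and 1 higher and 6 lower of 16 at 60 d. With no calprotectin limit the 14 d list had 3 higher and 1 lower and a median of 0.17. Pcna, the sliding clamp of DNA replication, measured 98.6 CPM in control and 83, 42.6, 55.2 and 46.4 CPM at 7, 14, 28 and 60 d, and Stmn1, a regulator of microtubules, 27.9 CPM in control and 20.3, 46, 23 and 19.2 CPM at 7, 14, 28 and 60 d. Pcna was lower at 14 d than in control, against the count of its list. The rule took out cells with 2 or more UMIs of Mki67 and Top2a, so these levels are those of cells under that limit. Of keratin-positive cells with Krt1 and Krt10 ahead, 28 of 659 in control were over it. At 7, 14, 28 and 60 d these were 1 of 54, 83 of 714, 109 of 1866 and 43 of 1064. The NRF2 targets, which detoxify oxidants, had 6 higher and 2 lower of 18 at 7 d, or 3 higher with scaling by the median of ratios, and medians of 0.45, 0.16, 0.02 and -0.03 at 7, 14, 28 and 60 d. Medians of the early suprabasal list were 0.60, -0.41, 0.23 and -0.22 at 7, 14, 28 and 60 d, of the Notch pathway 0.23, -0.24, -0.15 and -0.18 at 7, 14, 28 and 60 d and of the basal and hemidesmosome list 0.14, -0.35, 0.21 and 0.24 at 7, 14, 28 and 60 d. Over all genes the medians were those given above. EGF receptor ligands and feedback genes had medians of 0.55, 0.00, -0.16 and -0.70 at 7, 14, 28 and 60 d, heat shock genes -0.11, -0.55, -0.60 and -0.38 at 7, 14, 28 and 60 d and S100 and calcium-binding genes 0.32, 0.35, 0.01 and -0.05 at 7, 14, 28 and 60 d. The connexin and infundibulum list had 0.66, 0.27, 0.10 and 0.09 at 7, 14, 28 and 60 d.

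Among the remaining genes with high ratios, several were near 0 in control. Car2, a carbonic anhydrase, measured 95.9 CPM at 14 d against 0 CPM in control, where it had 0 UMIs. With the floor of 3 UMIs over the control members its ratio was 242-fold (95% interval 81.5 to 1182). Krt12, the keratin of the cornea, measured 0 CPM in control and 28.6, 54.3, 53.1 and 5.39 CPM at 7, 14, 28 and 60 d. Its ratio at 14 d with the same floor was 137-fold (95% interval 45.6 to 674). The floor corresponds to 0.397 CPM in control members. Krt71, an inner root sheath keratin, measured 5.16 CPM in control and 17.5, 146, 82.1 and 52.7 CPM at 7, 14, 28 and 60 d in members, and basal-type cells held 49.7 CPM in control and 48.4, 229.8, 195 and 124 CPM at 7, 14, 28 and 60 d. It was lower in members than in basal-type cells of each library, and it is one of the hair follicle markers summed above. Cotl1, an actin-binding protein, measured 2.78 CPM in control and 6.45, 76.8, 39.2 and 21.8 CPM at 7, 14, 28 and 60 d, and Bcl2l15 1.19 CPM in control and 59.9, 158, 26.9 and 21.3 CPM at 7, 14, 28 and 60 d. Mt4, the metallothionein of stratified epithelia, measured 0.132 CPM in control and 34.1, 46, 109.8 and 33.1 CPM at 7, 14, 28 and 60 d in members, with 1 UMI in control and 1778 at 28 d, found in 15.7% of members at 28 d. Its ratio at 28 d was 830.1-fold (95% interval 149 to 32806).

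Beside Wfdc18 and Krt71, the genes named as higher at 60 d were under 6-fold. Calml3, a calmodulin-like protein of differentiating epithelium, measured 34.4 CPM in control and 281, 172, 178 and 180.3 CPM at 7, 14, 28 and 60 d in members, and basal-type cells held 98 CPM in control and 286, 77.4, 63.5 and 80.7 CPM at 7, 14, 28 and 60 d. It was 5.24-fold (95% interval 4.62 to 5.96) higher than control in members at 60 d, and the basal-type ratio lay under 1. Tgfbi, a matrix protein induced by TGF-beta, measured 67.5 CPM in control and 251, 251, 202 and 311 CPM at 7, 14, 28 and 60 d, 4.61-fold (95% interval 4.22 to 5.06) higher at 60 d. Xdh (xanthine dehydrogenase) measured 26.5 CPM in control and 43.3, 55.8, 85.3 and 102 CPM at 7, 14, 28 and 60 d, higher at each later time, and Tcim 20.1 CPM in control and 87.6, 141, 72.4 and 62.1 CPM at 7, 14, 28 and 60 d. Cd24, a surface glycoprotein, measured 46 CPM in control and 467, 237, 323 and 128 CPM at 7, 14, 28 and 60 d in members, and basal-type cells held 135 CPM in control and 256, 116, 119 and 79.3 CPM at 7, 14, 28 and 60 d. In members it was 7.02-fold (95% interval 6.3 to 7.85) higher at 28 d.

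Among the genes named as lower, Ndufa4l2, a mitochondrial protein of low oxygen, measured 633 CPM in control and 64.5, 231, 456 and 870.5 CPM at 7, 14, 28 and 60 d in members, with its low value at 7 d and its high value at 60 d. Ces1d, a carboxylesterase, measured 105 CPM in control and 1.84, 0, 8.09 and 41.1 CPM at 7, 14, 28 and 60 d, where 0 UMIs at 14 d allow up to 1.80 CPM. Both genes were lower than control at 7, 14 and 28 d. Phgdh, the first enzyme of serine synthesis, measured 162 CPM in control and 19.4, 40.6, 90.7 and 121 CPM at 7, 14, 28 and 60 d, and Acaa2, an enzyme of fatty acid oxidation, 187 CPM in control and 28.6, 70.9, 88.8 and 106 CPM at 7, 14, 28 and 60 d. Apoc1, an apolipoprotein, measured 587 CPM in control and 181, 144, 68.4 and 241 CPM at 7, 14, 28 and 60 d in members, and basal-type cells held 748 CPM in control and 98.2, 148, 165 and 270.1 CPM at 7, 14, 28 and 60 d. Apoc1 was lowest at 28 d in members and at 7 d in basal-type cells. Hmgn3, a nucleosome-binding protein, measured 50 CPM in control and 9.22, 1.47, 11.9 and 25.2 CPM at 7, 14, 28 and 60 d. All 6 had their lowest value at 7, 14 or 28 d and a higher one at 60 d. They were named for low ratios at 7, 14 or 28 d, which favors such a course, and nothing is read from it. Other genes were named for low ratios at 60 d itself. Fst measured 146 CPM in control and 117, 11.3, 15.5 and 19 CPM at 7, 14, 28 and 60 d. The cholesterol 25-hydroxylase Ch25h measured 75.5 CPM in control and 39.6, 38.2, 19.6 and 7.89 CPM at 7, 14, 28 and 60 d. The retinol-binding protein gene Rbp7 measured 116 CPM in control and 167, 48.9, 23.3 and 20.1 CPM at 7, 14, 28 and 60 d, and Frmd4b 56.2 CPM in control and 21.2, 7.34, 15.1 and 5.01 CPM at 7, 14, 28 and 60 d. Of Fst, Ch25h, Rbp7 and Frmd4b only Rbp7 had a value above control, at 7 d. For Ch25h and Rbp7, 1 control member held 14.9% and 12.3% of the control UMIs. Low genes at 14 d included Nlrp10, a member of the NLR family, with 5.87 CPM at 14 d against 145 CPM in control. The chloride channel protein Clic3 measured 3.91 CPM at 14 d against 91.9 CPM in control and the protease Prss23 5.38 CPM at 14 d against 101 CPM in control.

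**Figure D5:**
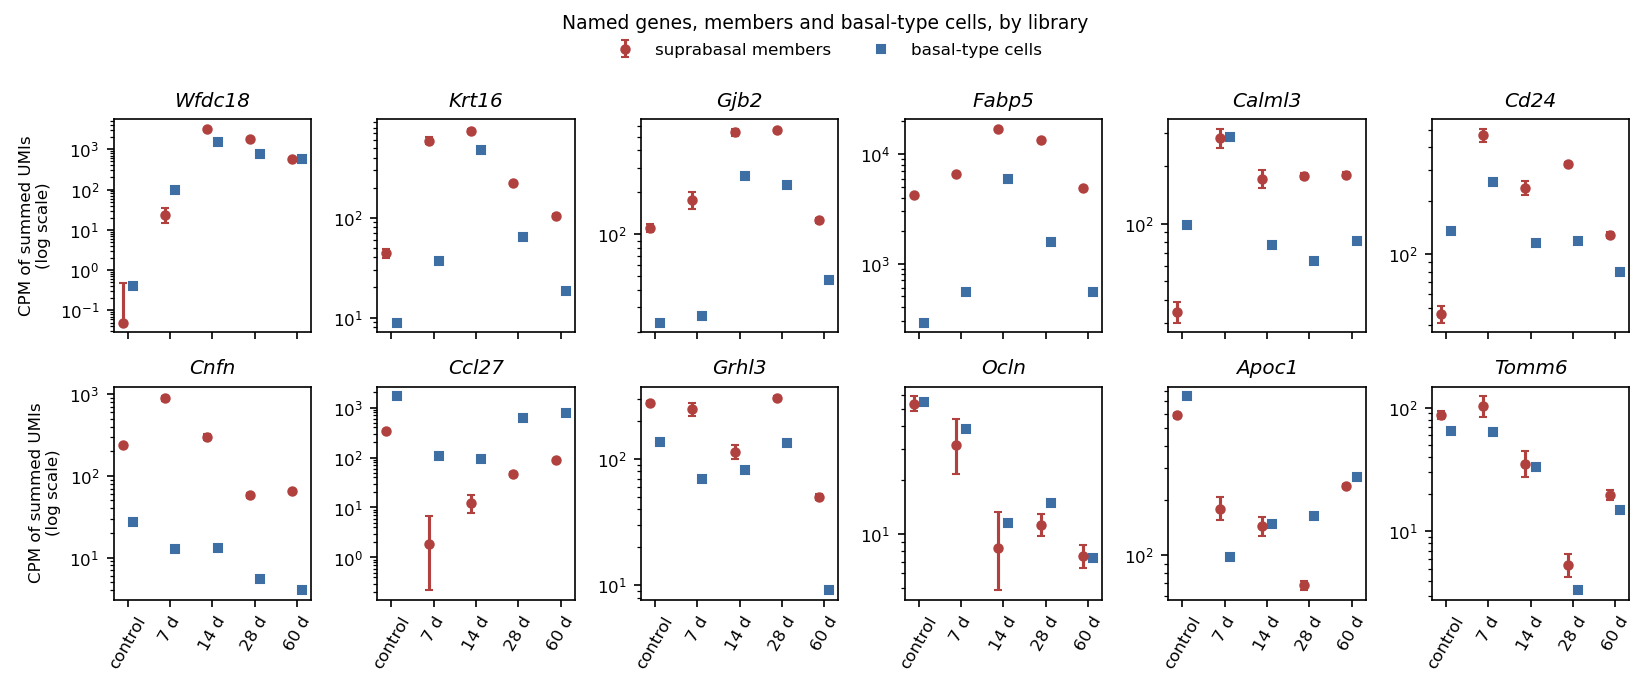
Level of 12 named genes in CPM on a log scale in members (circles, with 95% counting intervals) and basal-type cells (squares) of each library. Wfdc18, at 0 UMIs in control members, is drawn at the foot of its axis there and stands at 3175 CPM at 14 d. Ccl27 is lowest at 7 d in members, and Tomm6 is lowest at 28 d in both classes.

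The suprabasal cells over the calprotectin limit give the same library's other Krt1 and Krt10 cells for comparison. At 14 d the 102 members held 741 CPM of Krt16 and the 520 cells over the limit 1153 CPM, and at 28 d the values were 222 and 682 CPM. Gjb2 measured 538 CPM in members and 971 CPM over the limit at 14 d, and 559 and 1505 CPM at 28 d. Wfdc18 measured 3175 and 4861 CPM at 14 d. Krtdap was about even, with 5064 and 5652 CPM at 14 d and 3663 and 3645 CPM at 28 d. The cells over the limit had more Krt16 and Gjb2 at both times and more Wfdc18 at 14 d, and the limit that set them apart is itself one on S100a8 and S100a9, which are also genes of the wound list. Klf4 and Cdkn1a were lower in them, at 585 and 159 CPM at 14 d against 661 and 192 CPM in members.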

How the data were processed

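Single-cell RNA was measured with the Chromium 3' v3 chemistry in 5 libraries. The authors deposited raw UMI counts per gene and barcode as filtered matrices, and the submitters' processing notes name Cell Ranger 5.0.0, STAR, Seurat 3.1.1 and the genome build Rnor_6.0. Counts of gene IDs with the same symbol were added. No doublets were removed. An alternative removed the 6% of barcodes with the highest Scrublet scores (Scanpy 1.11.5). UMIs were added up within each class and library and given as CPM with Python 3.11.15, NumPy 2.4.6 and SciPy 1.17.1, and the ratio scripts were tested on simulated data. Shares have 95% Clopper-Pearson, levels Poisson and ratios exact conditional binomial intervals, which cover counting error only. A count of 0 in a ratio was set to 3 UMIs over the group, and the interval of such a ratio treats these 3 UMIs as observed. Nothing says that cells of a library are independent samples, so they were not used as replicates and no test was run.

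Members and lists were chosen with earlier results of these data known. Named genes were the 6 highest and 6 lowest ratios of each comparison at 50 CPM or more, found in at least 10% of members, with a member level of at least 0.2 times that of barcodes outside the keratin class, and no rule, mitochondrial, ribosomal protein or uncharacterised genes. To these were added the 12 genes highest and 6 lowest against basal-type cells in all libraries, up to 4 of most UMIs in each list, and the 5 most like Krtdap. Casp14, Ccng1, Dsc1, Nr4a1 and Phlda3 were added after their values were seen. Promoters are RefSeq sequences of GRCr8, another build than that of the counts. Alternatives changed the cell limits, the scaling, the weight of cells and the filter on low values.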

Additional observations from a re-analysis of the deposited data

Results flagged for a closer look

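Cd24 and Calml3 lay on opposite sides of control in members and in basal-type cells of the same library. At 28 d Cd24 measured 323 CPM in members against 46 CPM in control members, a log2 ratio of 2.81, and 119 CPM in basal-type cells against 135 CPM in control basal-type cells, a log2 ratio of -0.18. At 60 d Calml3 measured 180.3 CPM in members against 34.4 CPM in control members, a log2 ratio of 2.39, and 80.7 CPM in basal-type cells against 98 CPM in control basal-type cells, a log2 ratio of -0.28. In control both genes were lower in members than in basal-type cells, and at these times they were higher. With 1 library a group the difference between the classes was not tested.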

How the results depend on the processing

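The member share of kept barcodes and of members plus basal-type cells depended on the limits of the rule. With Krt1 plus Krt10 more than 2 times the basal keratins, members were 2.97% in control and 0.265, 1.35, 11.1 and 8.69% at 7, 14, 28 and 60 d of kept barcodes and 12.4% in control and 3.1, 11.4, 35.9 and 16.2% at 7, 14, 28 and 60 d of members plus basal-type cells. With at least 5% keratin UMIs these shares were 1.89% in control and 0.0708, 0.87, 10.1 and 8.22% at 7, 14, 28 and 60 d and 67.8% in control and 13.6, 27.5, 55.3 and 41.4% at 7, 14, 28 and 60 d. With marker-clean cells, a choice made after seeing the data, they were 2.93% in control and 0.168, 1.81, 11 and 9.53% at 7, 14, 28 and 60 d and 28.6% in control and 5.81, 22.2, 44.8 and 25.9% at 7, 14, 28 and 60 d. With no calprotectin limit they were 3.59% in control and 0.345, 14.2, 19.2 and 11.4% at 7, 14, 28 and 60 d and 14.5% in control and 3.98, 39.3, 46.8 and 19.8% at 7, 14, 28 and 60 d, and with a limit of 0.1% 3.56% in control and 0.31, 1.28, 11.8 and 10% at 7, 14, 28 and 60 d and 14.5% in control and 3.63, 13.7, 38.2 and 18.5% at 7, 14, 28 and 60 d. A filter of 1000 UMIs, 500 genes and 10% mitochondrial UMIs gave 14.8% of kept barcodes at 28 d and 11.6% at 60 d. The 7 d share of kept barcodes was the lowest and the 28 d share the highest under each of these settings. None of the settings relaxed the Krt79 limit, which took its largest part from control. The limits of 0.1% calprotectin and 5% keratin were applied to the shares only.

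Counts of genes past 2-fold followed the filter on low values. With a minimum of 200 CPM they were, higher and lower, 83 and 16 at 7 d, 54 and 69 at 14 d, 41 and 48 at 28 d, 13 and 51 at 60 d, and with 10 CPM and no limit on detection 845 and 274 at 7 d, 439 and 795 at 14 d, 278 and 484 at 28 d, 142 and 668 at 60 d. With each member weighted alike, 415 genes were higher at 7 d and 305 at 14 d, and scaling by the median of ratios gave 123 lower at 7 d. The other 77 of 96 counts stayed within 1.5 times, those without the deepest member and without the member of most Cnfn in each library among them, both chosen after seeing the data. All 479 ratios of the named genes under the alternatives kept their direction and their side of 2-fold. These genes were named for the most extreme ratios of each comparison, so this was likely from the choice alone. Of 880 list medians 101 moved by 0.25 or more, and 1 with a size of at least 0.5 changed sign, that of MHC class II at 14 d, which was -0.0502 with marker-clean members. Counting medians of any size, 75 lay on the other side of 0, in 32 of 88 lists and times, and apart from MHC class II their reported medians were 0.347 or less in size. Of 72 ratios within libraries, the largest one of Cav1, 0.0127 with each cell weighted alike, changed sign. The cause of these differences was not tested. Depth limits the 7 d comparison most, with 1084950 UMIs over 36 members, 1 of which held 11.1%. No paired analysis was possible because each group had 1 library.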
